A study of Mus musculus with 9 samples.

Results

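The cholesterol synthesis pathway was followed in sorted lung neutrophils through 8 genes: Hmgcs1, Idi1, Fdps, Fdft1, Sqle, Lss, Cyp51 and Insig1. They were chosen by gene symbol, with earlier results of these data known. They make up 8 of the 22064 genes listed and of the 18325 with values. All 8 passed the filter on low counts and were among the 14108 genes tested. The 9 bulk RNA-seq libraries came from female BALB/c mice, with 3 libraries in each of 3 groups. The Ly6Ghi and Ly6Glow libraries hold CD45+ cells sorted as Ly6G-high and Ly6G-low neutrophils from the lungs of mice at the macrometastatic stage, after 4T1-LM3 cells had been injected into the mammary fat pad. These tumor cells derive from 4T1, a mouse mammary carcinoma line, and were selected in vivo for spread to the lung. The NL libraries hold Ly6G-high neutrophils from the lungs of BALB/c females for which the labels name no tumor cells, taken as normal lung as in the study's methods, and their description fields name the Ly6G-high group only. No genetic change is named for any group, the age of the mice is not in the labels, and no source used here says whether a library came from 1 mouse or from pooled mice, so p-values measure only the spread between libraries, which may in part be technical. The design gives 3 comparisons: the 2 subsets within the metastatic lung, and each of them against NL. The comparisons share groups, so their results are not independent of each other.

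Cholesterol is built from acetyl-CoA through mevalonate to isoprenoid units, which are joined to farnesyl diphosphate and then to squalene, and squalene is closed to a ring and trimmed to cholesterol. The genes are regulated together by SREBP2, a membrane-bound transcription factor that is released when membrane sterol is low, and INSIG proteins hold it back in the endoplasmic reticulum when sterol is high. In neutrophils, membrane cholesterol supports the rafts from which adhesion and chemoattractant receptors signal, and farnesyl diphosphate also feeds the prenylation of small GTPases needed for migration.

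The 8 genes lie on 6 chromosomes, at positions given here on GRCm38.p6, the RefSeq build with the primary assembly of mm10, which is the build in the submitters' processing notes. Hmgcs1 (chr13:119690351-119708260, plus strand) and Idi1 (chr13:8885606-8892396, plus strand) share chromosome 13, far apart. Cyp51 (chr5:4080674-4104697, minus strand) and Insig1 (chr5:28071412-28078662, plus strand) share chromosome 5. The others are Fdps (chr3:89093588-89101967, minus strand), Lss (chr10:76531565-76557139, plus strand), Fdft1 (chr14:63145150-63181687, minus strand) and Sqle (chr15:59315092-59331193, plus strand). Promoter sequence from RefSeq was at hand for 5 of the 8, namely Hmgcs1, Idi1, Cyp51, Lss and Insig1. In the 250 bases before each start, 4 motifs were searched on both strands: the core of a sterol regulatory element (TCACNCCA), an E-box (CACGTG), the CCAAT box and the GC box (GGGCGG). For Lss the start was that of the promoter record, and its window (chr10:76531355-76531604) runs past the gene start given above. The CCAAT box was present in 5 of 5 windows, against 33.8% of all 32851 promoters, and so was the GC box, against 32.7%. The sterol regulatory element core was present in 1 of 5, that of Hmgcs1, 137 to 130 bases before the start (3.67% of all promoters), and the E-box in 1 of 5, that of Insig1, 101 to 96 bases before the start (6.02%). A match describes letters in the window and not a bound site. Only these exact letters were searched, so a window without a match may still hold a site. The motifs were not tested against the expression data. The windows of Hmgcs1, Cyp51 and Insig1 are shown. The first gene differed between Ly6Ghi and NL, and the other 2 did not pass the test there. Idi1, whose window is not shown, also rose there (log2 fold change 0.87). Its window matched the CCAAT and GC boxes but neither the sterol regulatory element core nor the E-box. Capitals mark matches to the sterol regulatory element core, the E-box and the CCAAT box.
Hmgcs1 (chr13:119690101-119690350, plus strand): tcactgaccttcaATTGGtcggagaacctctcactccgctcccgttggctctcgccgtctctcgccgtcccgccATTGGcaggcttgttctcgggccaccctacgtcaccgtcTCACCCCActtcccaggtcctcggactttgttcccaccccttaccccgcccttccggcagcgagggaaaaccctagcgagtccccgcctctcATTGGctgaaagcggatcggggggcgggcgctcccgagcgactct
Cyp51 (chr5:4104698-4104947, minus strand): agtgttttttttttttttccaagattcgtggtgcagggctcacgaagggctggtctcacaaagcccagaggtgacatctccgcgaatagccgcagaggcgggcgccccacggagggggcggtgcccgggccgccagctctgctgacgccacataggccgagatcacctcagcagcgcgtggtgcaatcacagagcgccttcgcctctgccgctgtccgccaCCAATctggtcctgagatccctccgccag
Insig1 (chr5:28071162-28071411, plus strand): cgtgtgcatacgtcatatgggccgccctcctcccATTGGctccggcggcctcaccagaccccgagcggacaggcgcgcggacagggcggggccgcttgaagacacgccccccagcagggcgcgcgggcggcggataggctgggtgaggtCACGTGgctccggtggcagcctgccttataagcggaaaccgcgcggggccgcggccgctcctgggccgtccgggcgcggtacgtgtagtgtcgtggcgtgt

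Library totals of the estimated counts ran from 15267177 to 17841807, and each of the 8 genes had values in every library. The second NL library stood apart from the others of its group, with a chi-square per gene of 5.32 and 4.06 against them, while the other pairs within groups lay between 1.38 and 2.32. The scale is CPM, counts scaled to the TMM-adjusted library size, unless FPKM (fragments scaled for transcript length and library size) is named. The summed CPM of 8 neutrophil markers was 68100 to 69949 in Ly6Ghi and 73388 to 75154 in Ly6Glow but 17297 to 17588 in NL. Ly6g, the gene behind the sort, stood at 374 ± 10.8 CPM (SD, n = 3) in Ly6Ghi, 394 ± 9.32 in Ly6Glow and 119 ± 1.40 in NL. Its log2 fold change of 0.08 (SE 0.03) between Ly6Glow and Ly6Ghi did not pass edgeR's quasi-likelihood test (adjusted p = 0.0577). On FPKM, Ly6g was higher in Ly6Ghi (395.58 to 416.57) than in Ly6Glow (357.64 to 373.45). The direction of the Ly6g mRNA between the subsets thus depended on the scale. Transcripts of other lung cells moved with the groups. Against the metastatic libraries, NL had more summed CPM of 6 alveolar type 2 epithelial markers (1411 to 1540, against 250.2 to 260.2 in Ly6Ghi and 251.5 to 257.4 in Ly6Glow), of 6 endothelial markers (778.1 to 845.2, against 122.7 to 156.5 over both) and of 5 fibroblast markers (514.4 to 544.9, against 49.41 to 57.57 over both). Among the type 2 markers Napsa went the other way, at 150.3 ± 5.16 CPM in Ly6Ghi, 149.5 ± 4.14 in Ly6Glow and 72.7 ± 3.1 in NL. The 11 alveolar macrophage markers summed to 1634 to 1692 in Ly6Ghi, 353.8 to 374.4 in Ly6Glow and 2139 to 2183 in NL, and 8 of them fell in Ly6Glow against Ly6Ghi. Chil3 made up most of the Ly6Ghi sum (1274 ± 23.5 CPM) and stood at 964.1 ± 15.6 in NL. Against NL, 8 of the 11 fell in Ly6Ghi and none rose, with a median log2 fold change of -1.94. The 6 proliferation and immature-neutrophil markers summed to 496.4 to 504.1 in Ly6Ghi, 102.9 to 108.9 in Ly6Glow and 124 to 134 in NL, and all 6 fell in Ly6Glow against Ly6Ghi. Eosinophil and basophil markers (6 genes) summed to 96.01 to 104.3 in Ly6Ghi, 14.87 to 19.87 in Ly6Glow and 2.298 to 3.468 in NL. Monocyte and macrophage markers summed in the same order to 381.4 to 391.1, 406.7 to 434.6 and 529.9 to 566.5. Of these 8 genes only Csf1r was higher in Ly6Glow (298.6 ± 9.21 CPM) than in Ly6Ghi (217.1 ± 3.65). By the rule given below, Ly6c2 and Ms4a7 fell between these groups and none rose, with a median log2 fold change of -0.30. Markers of T, B and NK cells summed to 51.44 to 53.08 in Ly6Ghi, 31.35 to 33.92 in Ly6Glow and 39.1 to 40.47 in NL. Epithelial or tumor markers summed to 31.75 to 37.53 in the metastatic libraries and 148 to 161.1 in NL. Dendritic cell markers stayed at or under 14.47 and erythroid markers at or under 5.479, and Hbb-bt was the one marker at 0 throughout a group, in Ly6Ghi and in NL. The part of these cells in the results below was not tested, and in bulk libraries fewer cells of a type and less RNA per cell cannot be told apart.

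**Figure D1:**
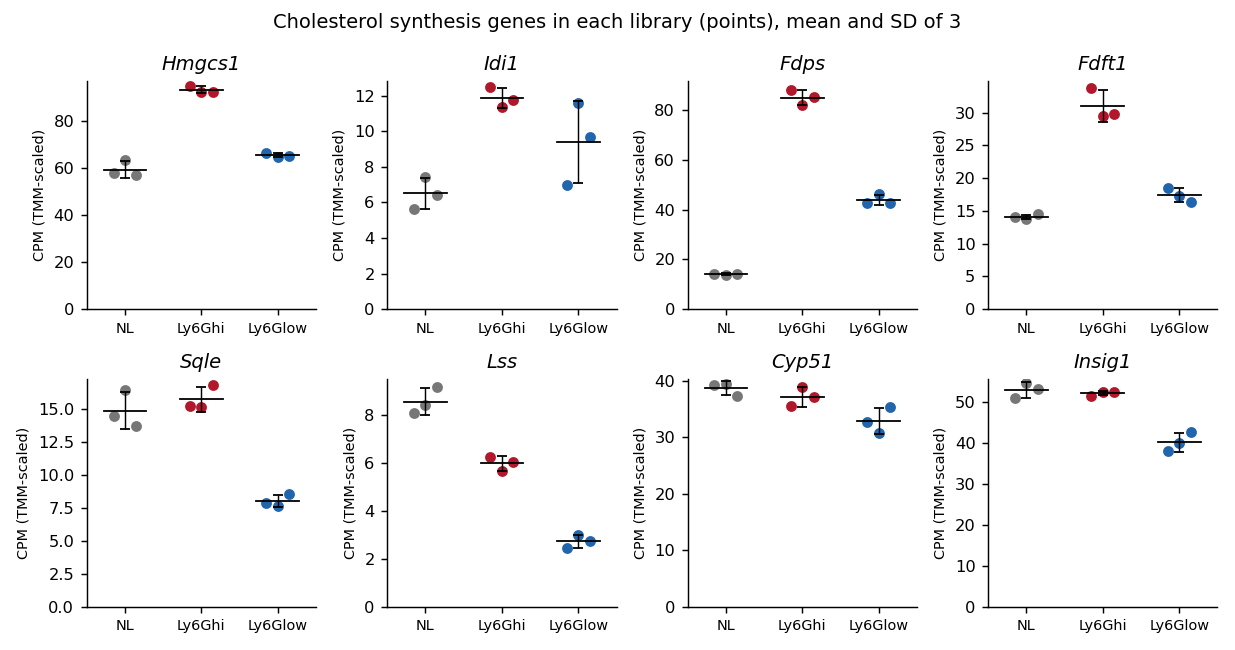
CPM (linear axis from 0) of each gene in the 3 libraries of NL, Ly6Ghi and Ly6Glow; points are libraries, the long bar is the mean and the whiskers are the SD. Fdps stands highest in Ly6Ghi (82.1 to 88.0) and lowest in NL (13.7 to 14.2), while Lss steps down from NL (8.08 to 9.19) to Ly6Ghi (5.67 to 6.27) and Ly6Glow (2.44 to 3.01).

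The first comparison asks how the Ly6G-low subset of the metastatic lung differs from the Ly6G-high subset. In Ly6Glow 4 of the 8 genes fell and none rose: Fdps, Fdft1, Sqle and Lss, which carry the path from isoprenoid units through squalene to the first sterol ring. A gene counts as changed when its adjusted p is 0.05 or less and its log2 fold change exceeds 0.58 in size, by edgeR's quasi-likelihood test with Benjamini-Hochberg adjustment. Of all genes tested, 15.9% fell and 9.29% rose by this rule. With the fold limit set aside, all 8 genes passed the test in the lower direction and none in the higher, against 29.6% and 26.1% of all genes, and in 7 of 8, against 33.1%, every Ly6Glow library was below every Ly6Ghi library. The median log2 fold change of the 8 genes was -0.67, against -0.04 over all genes tested.

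Fdps encodes farnesyl diphosphate synthase, at the branch between sterols and prenylated proteins. It stood at 88.0, 82.1 and 85.2 CPM in Ly6Ghi and at 42.6, 46.2 and 42.8 in Ly6Glow. The groups did not overlap, and the log2 fold change was -0.96 (SE 0.05, adjusted p = 5.2e-13), a level 1.94-fold lower. Fdft1 encodes squalene synthase, the first step committed to sterols. Its levels were 33.8, 29.5 and 29.8 CPM in Ly6Ghi and 18.5, 17.3 and 16.4 in Ly6Glow. It fell by 0.83 on the log2 scale (SE 0.07, adjusted p = 2.75e-09). Sqle encodes squalene epoxidase, the first oxygen-requiring step of the pathway. It stood at 15.2, 15.2 and 16.8 CPM in Ly6Ghi and at 7.88, 7.68 and 8.54 in Ly6Glow, and it fell by 0.97 (SE 0.10, adjusted p = 3.03e-08). Lss encodes lanosterol synthase, which closes the ring. It had the largest difference and the lowest level of the 8, with 6.27, 5.67 and 6.07 CPM in Ly6Ghi and 2.44, 3.01 and 2.74 in Ly6Glow. The log2 fold change of Lss was -1.13 (SE 0.15, adjusted p = 8.43e-07), but on log2(FPKM + 1), where the pseudocount shrinks low genes, it was -0.57 and missed the fold limit.

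The other 4 genes were lower in Ly6Glow by less than the fold limit. Hmgcs1 encodes the cytosolic synthase that makes HMG-CoA at the start of the pathway. It stood at 95.2, 92.7 and 92.6 CPM in Ly6Ghi and at 66.5, 64.8 and 65.3 in Ly6Glow, with tight libraries in both groups. Its log2 fold change was -0.51 (SE 0.05, adjusted p = 5.32e-09), and -0.71 on log2(FPKM + 1), past the limit. Insig1, the sterol-sensing anchor and itself a target of SREBP2, was at 51.4, 52.4 and 52.2 CPM in Ly6Ghi and at 37.9, 40.0 and 42.5 in Ly6Glow. The log2 fold change of Insig1 was -0.38 (SE 0.06, adjusted p = 4.42e-06). Cyp51, the lanosterol demethylase, was at 35.5, 39.0 and 37.2 CPM against 32.7, 30.8 and 35.4, the smallest difference of the 8 (log2 fold change -0.18, SE 0.06, adjusted p = 0.0213). Idi1 encodes the isomerase that makes the reactive isoprenoid unit. It was the one gene whose libraries overlapped, at 12.5, 11.4 and 11.8 CPM in Ly6Ghi and 6.99, 11.6 and 9.68 in Ly6Glow. The first Ly6Glow library was the low one, and the log2 fold change of -0.33 (SE 0.13, adjusted p = 0.0413) ranged from -0.51 to -0.16 as single libraries were left out. The direction was the same for all 8 genes under every scaling, filter, test and left-out library tried.

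**Figure D2:**
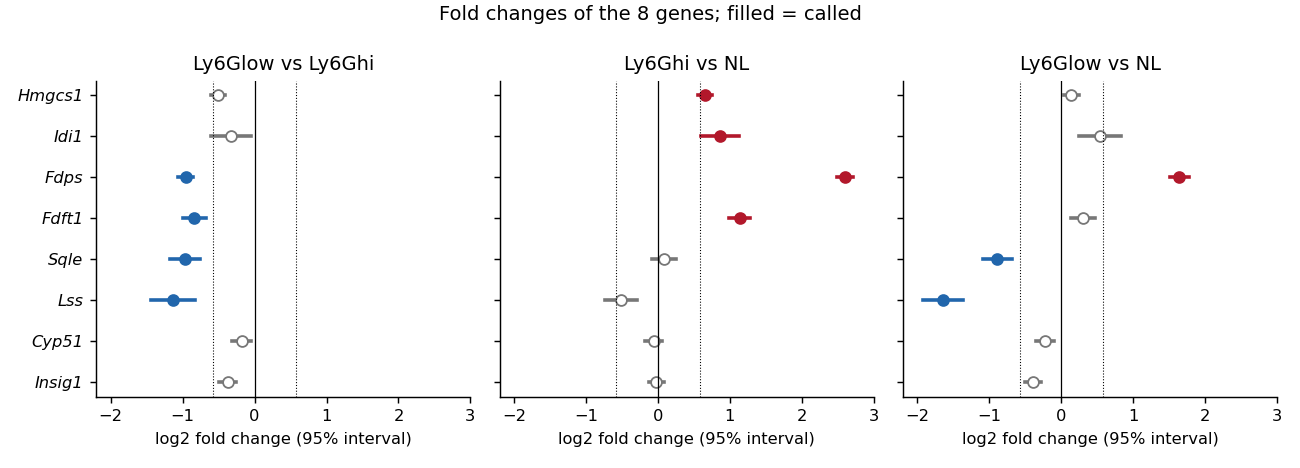
Log2 fold change (horizontal axis) of each gene in the 3 comparisons, with its 95% interval from edgeR's model; filled points passed the test and the fold limit of 0.58 (dotted lines), red for higher and blue for lower. All 8 points lie below 0 for Ly6Glow against Ly6Ghi, while against NL the genes scatter on both sides, from 2.60 for Fdps in Ly6Ghi to -1.65 for Lss in Ly6Glow.

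The second comparison asks how Ly6G-high neutrophils of the metastatic lung differ from those of normal lung. In Ly6Ghi 4 of the 8 genes rose, namely Fdps, Fdft1, Idi1 and Hmgcs1, and none fell. By the same rule 26.3% of all genes rose and 36.6% fell, and the median over the 8 was 0.37, against -0.09 over all genes tested. With the fold limit set aside 4 of 8 passed as higher, against 39.9% of all genes, and 1 of 8 as lower, against 44.7%, and Ly6Ghi and NL did not overlap for those same 5 genes (higher in 40.2% of all genes and lower in 45.0%). The scaling of these libraries matters here, since their TMM factors, which correct for differences in RNA composition, were 0.946 to 0.950 in Ly6Ghi and 1.30 to 1.32 in NL. On log2(FPKM + 1), without such a factor, the rise of Fdps (2.06) and that of Fdft1 (0.584) held, Hmgcs1 (0.18) and Idi1 (0.32) missed the limit, and the median of the 8 turned to -0.07.

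Fdps had by far the largest difference of the 8. It stood at 14.2, 13.7 and 14.2 CPM in NL, against 82.1 to 88.0 in Ly6Ghi, a 6.05-fold higher level (log2 fold change 2.60, SE 0.06, adjusted p = 1e-20, 95% interval 2.48 to 2.71). The difference ranged from 2.06 to 2.63 over the alternatives tried and from 2.58 to 2.63 with single libraries left out. Fdft1 was at 14.0, 13.8 and 14.5 CPM in NL and rose 2.20-fold (log2 fold change 1.14, SE 0.07, adjusted p = 1.13e-12). Idi1 was at 5.66, 7.44 and 6.44 CPM in NL and did not overlap with Ly6Ghi (log2 fold change 0.87, SE 0.13, adjusted p = 2.09e-06). Hmgcs1, at 57.8, 63.5 and 57.1 CPM in NL, rose 1.57-fold (log2 fold change 0.65, SE 0.05, adjusted p = 9.85e-12), close enough to the limit that upper-quartile scaling (0.46) and a filter of at least 10 counts in every library (0.48) ended the call.

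Sqle, Cyp51 and Insig1 overlapped between Ly6Ghi and NL. Sqle, at 14.5, 16.5 and 13.7 CPM in NL, had a log2 fold change of 0.08 (95% interval -0.09 to 0.25, adjusted p = 0.354) that turned to -0.11 with upper-quartile scaling and -0.33 on log2(FPKM + 1). Cyp51, at 39.3, 39.5 and 37.3 CPM in NL, differed by -0.06 (95% interval -0.18 to 0.06, adjusted p = 0.366). Insig1, at 50.9, 54.6 and 53.0 CPM in NL, differed by -0.02 (95% interval -0.12 to 0.08, adjusted p = 0.684). For these 3 genes the data allow differences of the size of the intervals, on the TMM scale alone. Over the scalings, filters and tests tried, Cyp51 ranged from -0.52 to -0.03 and Insig1 from -0.48 to 0.01. On FPKM all 3 genes were lower in every Ly6Ghi library than in every NL library. Lss was lower in every Ly6Ghi library than in NL, where it stood at 8.08, 8.44 and 9.19 CPM, but its log2 fold change of -0.52 (SE 0.11, adjusted p = 0.000127) was short of the limit, which it passed with upper-quartile scaling (-0.71).

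The third comparison sets Ly6G-low neutrophils of the metastatic lung against Ly6G-high neutrophils of normal lung, so that the subset and the state of the lung change together and cannot be told apart. Fdps rose, and Sqle and Lss fell. Of all genes 28.7% rose and 40.8% fell, and the median over the 8 was -0.05, against -0.16 over all genes tested. With the fold limit set aside 4 of 8 passed as higher, against 39.6% of all genes, and 4 of 8 as lower, against 47.2%; the libraries did not overlap for 3 of the higher genes (39.4% of all genes) and for 4 lower ones (47.5%). Fdps was at 42.6 to 46.2 CPM against 13.7 to 14.2, a 3.12-fold higher level (log2 fold change 1.64, SE 0.06, adjusted p = 1.42e-16), and its call held in every alternative. Sqle was at 7.68 to 8.54 CPM against 13.7 to 16.5 and fell by 0.89 (SE 0.10, adjusted p = 2.22e-08). Lss had the largest fall of the 8, at 2.44 to 3.01 CPM against 8.08 to 9.19, a 3.13-fold lower level (log2 fold change -1.65, SE 0.13, adjusted p = 1.29e-10). Both falls kept their call at the limit of 0.58 in every alternative tried.

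The remaining 5 genes lay within the limit on the TMM scale, and 3 of them changed sign with it. Hmgcs1 was 0.14 higher (SE 0.05, adjusted p = 0.0103), but -0.05 with upper-quartile scaling and -0.52 on log2(FPKM + 1). Fdft1 was 0.30 higher (SE 0.08, adjusted p = 0.00149) but -0.35 on log2(FPKM + 1). Idi1 was 0.54 higher with overlapping libraries (SE 0.14, adjusted p = 0.00125). It passed the limit at 0.63 with median-ratio size factors and at 0.72 without the first Ly6Glow library and at 0.65 without the second NL library, and was -0.14 on log2(FPKM + 1). Cyp51 (-0.23, SE 0.06, adjusted p = 0.00128) and Insig1 (-0.40, SE 0.05, adjusted p = 4.59e-07) were lower under all alternatives, and passed the limit on log2(FPKM + 1) at -0.84 and -1.04. Insig1 also passed it with upper-quartile scaling (-0.59) and, just, with the filter of at least 10 counts (-0.58), so that 3 of the 8 fell there.

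**Figure D3:**
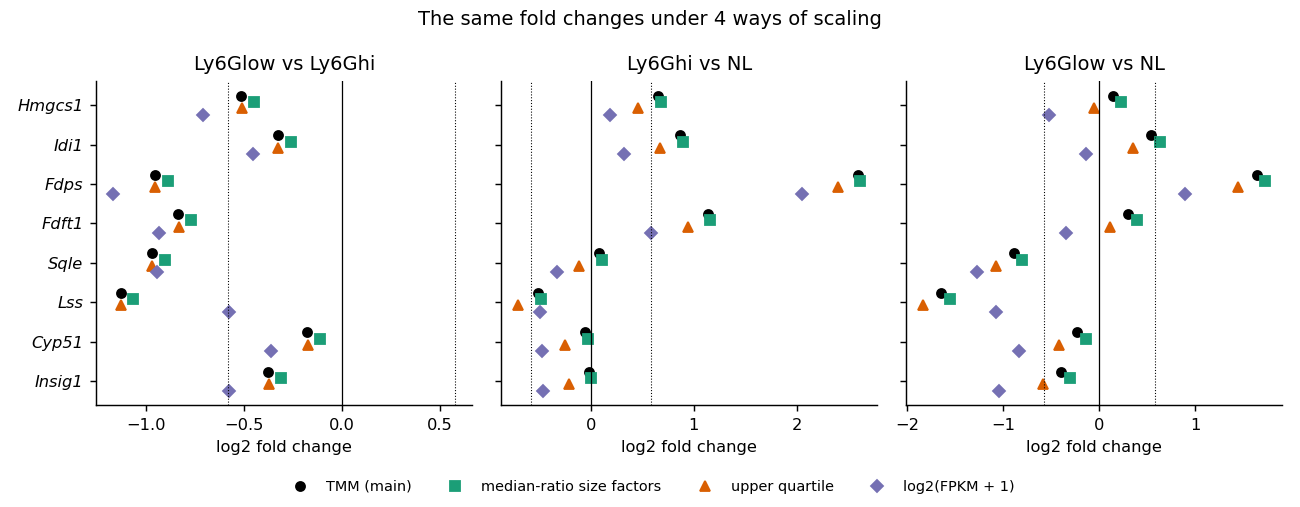
Log2 fold change (horizontal axis) of the 8 genes in the 3 comparisons under TMM, median-ratio and upper-quartile scaling of counts and on log2(FPKM + 1); dotted lines mark the limit of 0.58. For Ly6Glow against Ly6Ghi all markers lie left of 0, whereas against NL the FPKM values lie to the left of the TMM values for most genes, and Fdps stays right of the limit in both.

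Levels can be compared between genes only per transcript length, so the order within a group was read from FPKM. In Ly6Ghi, Fdps led at 66.4 ± 2.30 FPKM (SD, n = 3), followed by Hmgcs1 at 25.8 ± 0.332, Insig1 at 19.0 ± 0.256, Fdft1 at 9.23 ± 0.722, Cyp51 at 8.20 ± 0.410, Sqle at 5.54 ± 0.341, Idi1 at 4.00 ± 0.182 and Lss at 1.42 ± 0.0681. The ranges of the 3 libraries did not overlap between any neighbours in that order. In Ly6Glow the same 3 genes led, with Fdps at 29.0 ± 1.24, Hmgcs1 at 15.4 ± 0.236 and Insig1 at 12.4 ± 0.718 FPKM. Cyp51 (6.16 ± 0.441) stood above Fdft1 (4.35 ± 0.288) there, and Idi1 (2.69 ± 0.653) and Sqle (2.39 ± 0.140) overlapped. In NL, Insig1 led at 26.6 ± 1.20 FPKM, before Hmgcs1 at 22.6 ± 1.50 and Fdps in the third place at 15.2 ± 0.218. Sqle (7.22 ± 0.750) was above Fdft1 (5.81 ± 0.210) in NL, and Idi1 (3.03 ± 0.456) and Lss (2.42 ± 0.252) overlapped at the low end.

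**Figure D4:**
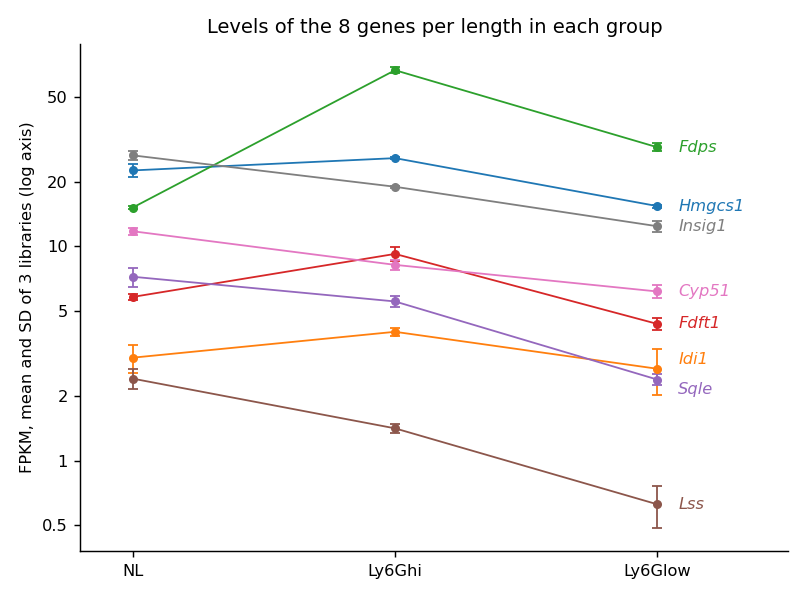
FPKM (log axis) of the 8 genes in NL, Ly6Ghi and Ly6Glow; points are means, whiskers the SD of 3 libraries, and lines join the same gene. Fdps moves from the third place in NL (15.2) to the first in Ly6Ghi (66.4) and Ly6Glow (29.0), and Lss is lowest in all 3 groups.

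Ratios between genes within a library do not depend on how libraries are scaled, and 4 such ratios, chosen after the values had been seen, show how the proportions differed. Fdps FPKM divided by Cyp51 FPKM was 8.79, 7.42 and 8.13 in Ly6Ghi, 4.57, 5.30 and 4.32 in Ly6Glow and 1.28, 1.24 and 1.36 in NL, without overlap between groups. Fdps divided by Fdft1, the enzyme that draws on its product, was 6.80 to 7.56 in Ly6Ghi, 6.02 to 7.07 in Ly6Glow and 2.55 to 2.67 in NL, so that the 2 metastatic groups overlapped and both were above NL. Sqle divided by Fdft1, the enzyme before it, was 0.531 to 0.672 in Ly6Ghi, 0.504 to 0.623 in Ly6Glow and 1.10 to 1.41 in NL. Hmgcs1 divided by Insig1 was 1.34 to 1.40, 1.17 to 1.33 and 0.816 to 0.877 in the same order.

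The other enzymes of the pathway were read from a list of 13. In Ly6Glow against Ly6Ghi, 6 of 13 fell and none rose, against 15.9% and 9.29% of all genes. The median log2 fold change of the 13 was -0.44. The largest fall was that of Hsd17b7, a ketosteroid reductase of the late pathway, from 21.1 ± 0.789 to 8.87 ± 0.615 CPM (log2 fold change -1.25, SE 0.09, adjusted p = 3.45e-11), and the smallest that of Mvk, mevalonate kinase (-0.60, SE 0.15, adjusted p = 0.00183). With median-ratio size factors 4 of 13 fell. In Ly6Ghi against NL, 7 of 13 rose and 1 fell, against 26.3% and 36.6% of all genes, with a median of 0.92. Lbr, which is both a nuclear lamina protein and a sterol reductase, rose most, from 236 ± 7.89 to 913 ± 24.8 CPM (log2 fold change 1.95, SE 0.03, adjusted p = 3.63e-22), Nsdhl, a dehydrogenase of the demethylation steps, rose least (0.92, SE 0.09, adjusted p = 3.68e-09), and Dhcr7, a reductase of the final steps, fell (-1.33, SE 0.11, adjusted p = 4.28e-10). On log2(FPKM + 1) the split was 4 higher and 3 lower. In Ly6Glow against NL, Mvd, Msmo1, Sc5d and Lbr rose, up to 1.93 for Lbr, and 3 of 13 fell, Mvk and Dhcr7 among them. The lowest was Dhcr7 at -2.52. The 4 rises lay near the share over all genes (28.7%), and 40.8% of all genes fell. The median of the 13 was 0.01 and turned to -0.50 on log2(FPKM + 1).

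Of 11 genes of sterol sensing and SREBP processing, Stard4, a sterol carrier, and Tmem97, a sterol-responsive membrane protein, fell in Ly6Glow against Ly6Ghi (-0.74 and -1.33). These 2 of 11 lay near the 15.9% of all genes that fell there, and none of the 11 rose. Srebf2, which encodes SREBP2, was at 200 ± 2.57 CPM in Ly6Ghi, 182 ± 8.57 in Ly6Glow and 101 ± 6.84 in NL. Between the subsets Srebf2 differed by -0.14 (SE 0.05, adjusted p = 0.0102), short of the limit, whereas against NL it rose by 0.99 in Ly6Ghi and 0.85 in Ly6Glow. Srebf1 and Stard4 also rose in Ly6Ghi against NL (0.62 and 0.59) and Tmem97 fell (-0.99). In all, 4 of the 11 rose and 1 fell there, against 26.3% and 36.6% of all genes. In Ly6Glow against NL, Srebf1, Insig2 and Ubxn4 rose beside Srebf2 (0.61 to 0.95) and Tmem97 fell (-2.32). In all, 5 of the 11 rose and 1 fell there, against 28.7% and 40.8% of all genes. Tmem97 was near the floor, with 10, 16 and 11 counts in the Ly6Glow libraries. None of the rises in this list against NL was called on log2(FPKM + 1), where the median was 0.05 for Ly6Ghi and -0.16 for Ly6Glow, against 0.52 and 0.52 with TMM.

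Genes that draw on the same isoprenoids or handle cholesterol and fatty acids differed in other proportions. Of all genes tested, 9.29% rose and 15.9% fell in Ly6Glow against Ly6Ghi. Against NL, 26.3% rose and 36.6% fell in Ly6Ghi, and 28.7% rose and 40.8% fell in Ly6Glow. In the non-sterol isoprenoid branch (12 genes), Rabggtb, Nus1 and Pdss2 fell in Ly6Glow against Ly6Ghi (-0.60 to -0.78). Against NL, Fnta, Rabggta and Dhdds rose in Ly6Ghi (up to 1.22 for Dhdds) and Rabggtb, Nus1, Coq2 and Cox10 fell (down to -1.58 for Cox10). In Ly6Glow those same genes and Ggps1 were called in the same directions (1.05 for Rabggta to -1.87 for Cox10). These counts of the 12, 3 higher and 4 lower in Ly6Ghi and 4 and 4 in Ly6Glow, lay near the shares over all genes. On log2(FPKM + 1) 1 of the 12 rose in Ly6Ghi and none in Ly6Glow against NL, and without the second Ly6Ghi library 5 rose in Ly6Ghi. Of 9 genes of LXR signalling, efflux and esterification, Abca1, the exporter of cholesterol, rose in Ly6Glow against Ly6Ghi from 200 ± 1.49 to 566 ± 16.8 CPM (log2 fold change 1.50, SE 0.03, adjusted p = 3.63e-19), while Abcg1, Nr1h3, Nceh1, Cyp27a1 and Ch25h fell (-0.59 to -1.24). The libraries of Nr1h3 overlapped (log2 fold change -0.76, SE 0.31, adjusted p = 0.0438), and 3 of the 9 genes fell without the first or without the third Ly6Glow library. The same 5 genes fell against NL in both subsets, down to -3.90 for Ch25h in Ly6Glow, Nr1h2 and Soat1 rose in both, and Abca1 rose in Ly6Glow (2.01) and was 0.51 higher in Ly6Ghi, short of the limit. Low counts lie behind some of these falls: in the Ly6Glow libraries Ch25h had 10, 16 and 12 counts and Nr1h3 had 10, 23 and 9. The rises, 2 of 9 in Ly6Ghi and 3 of 9 in Ly6Glow, lay near the shares over all genes. With median-ratio size factors 3 of the 9 fell between the subsets, and on log2(FPKM + 1) none of the 9 rose in Ly6Ghi against NL. Of 11 genes listed under fatty acid synthesis, which SREBP1 regulates, Lpin1, Fasn, Scd2, Acaca and Fads2 fell in Ly6Glow against Ly6Ghi (-2.13 to -0.62). Lpin1 encodes an enzyme of glycerolipid rather than fatty acid synthesis, and the largest fall among the others was that of Fasn (-0.82). Against NL 8 of 11 fell in Ly6Ghi (-0.97 for Scd2 to -2.86 for Me1) and 9 of 11 in Ly6Glow (-0.71 for Acaca to -4.85 for Lpin1), while Acly and Acss2, which supply cytosolic acetyl-CoA, rose in both (0.67 to 0.99). Me1 had 21, 16 and 18 counts in the Ly6Ghi libraries, and Lpin1 had 20, 13 and 22 in the Ly6Glow libraries. On log2(FPKM + 1) the 2 rises against NL were not called.

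**Figure D5:**
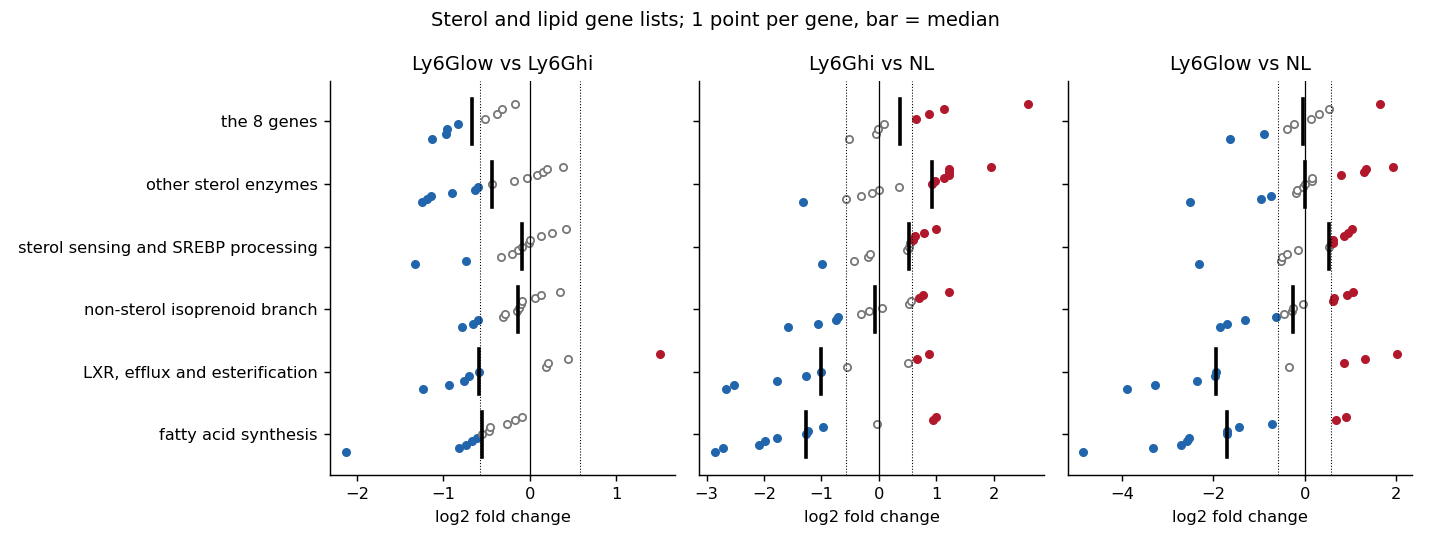
Log2 fold change (horizontal axis) of every tested gene in the 8-gene group and 5 further lists, in the 3 comparisons; 1 point per gene, filled red or blue where called higher or lower, with the median as a black bar. Of the 13 other sterol enzymes none is called higher in Ly6Glow against Ly6Ghi and 7 are in Ly6Ghi against NL, whereas 8 of the 11 genes listed under fatty acid synthesis are called lower in Ly6Ghi against NL. Of all genes tested, 9.29% are called higher in Ly6Glow against Ly6Ghi, and 26.3% higher and 36.6% lower in Ly6Ghi against NL.

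Among the 8 genes, Cyp51 and Insig1 had the most similar profiles over the 9 libraries, with a root mean square difference of 0.11 in centred log2 CPM, while Fdps was 0.66 away from Fdft1, its nearest neighbour in the group. Nearest profiles outside the group were sought over all tested genes with a mean of at least 10 CPM, leaving out the 8. The nearest profile was that of Acsl1 for Hmgcs1 (0.06), Rhou for Fdps (0.04), Rpsa for Fdft1 (0.07), Dnm1l for Sqle (0.08), Hsp90b1 for Lss (0.09), Uba3 for Idi1 (0.14), Casp8 for Cyp51 (0.04) and Cct8 for Insig1 (0.04). For the mean profile of the 8 Ppp3cb (0.05) and Stard4 (0.05) were among the nearest. These distances describe 9 libraries in 3 groups and carry no test.

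Several of the 8 genes overlap other genes in the GENCODE M21 annotation, and the counting program and its use of strand are not given in the sources used here, although the labels describe strand-specific libraries. Fdft1 shares 774 bases at its end with Ctsb on the opposite strand, which stood at 823 ± 7.64 CPM in Ly6Ghi, 1223 ± 27.4 in Ly6Glow and 817 ± 25.9 in NL. The log2 fold change of Ctsb was 0.57 in Ly6Glow against Ly6Ghi and 0.01 in Ly6Ghi against NL. The part of Ctsb reads in the Fdft1 counts was not tested. Fdps shares 7512 bases with a read-through transcript on its own strand that joins it to its neighbour Rusc1, so its reads could be split. Rusc1 was at 42.4 ± 3.39 CPM in Ly6Ghi, 52.8 ± 0.604 in Ly6Glow and 14.4 ± 0.523 in NL, so that its log2 fold change against NL was 1.56 in Ly6Ghi and 1.88 in Ly6Glow. Cyp51 shares 166 bases with Akap9, and Hmgcs1, Idi1 and Lss each overlap a noncoding or tentative transcript on the opposite strand. Idi2, the paralog of Idi1, had at most 5 counts in any library.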

How the data were processed

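Bulk RNA-seq of sorted lung neutrophils was analysed in 9 libraries, 3 per group, and groups were taken from the sample titles. The authors deposited estimated counts of reads per gene, not normalized, and FPKM values, which are fragment numbers scaled for transcript length and library size; mm10 is the build in the submitters' processing notes, and the aligner and counter are not given in the sources used here. Of 22064 genes, 3739 had no value. Estimated counts (37.9% whole, tolerance 1e-9) were rounded. Counts were tested in R 4.3.3 with edgeR 4.0.16 (TMM, filterByExpr by group, quasi-likelihood test in 1 model of the 9 libraries), with Benjamini-Hochberg adjustment over 14108 genes, and a call needed an adjusted p of at most 0.05 and a log2 fold change above 0.58 in size. DESeq2 1.42.0 (the tool named in the study's methods), limma 3.58.1 on log2 FPKM and other scalings, filters and left-out libraries were alternatives. The fit was tested on simulated data. Libraries within a group differed by more than counting noise, the second NL library most. The biological coefficient of variation was 0.0346, so that small differences between these libraries could be resolved in abundant genes. Whether such differences hold between mice cannot be told, since the sources do not say if a library is 1 mouse or a pool. Total counts of 15267177 to 17841807 limit the low genes, such as Lss and, lower still, Ch25h, Nr1h3 and Tmem97.

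The 8 genes, the further gene lists and the promoter motifs were chosen with earlier results of these data known. The ratios between genes, and the alternatives for lists other than the sterol enzymes, were added after the data were seen. Named genes were the 8 in every comparison, the largest and smallest called change of each list, any gene a count of 5 or fewer is about, and the genes with the nearest profile (smallest root mean square difference of centred log2 CPM, prior count 2). The labels do not say that a replicate number marks shared mice, so no pairing was assumed. The marker lists covered neutrophils, alveolar macrophages, monocytes and macrophages, alveolar type 2 cells, epithelium or tumor, endothelium, fibroblasts, eosinophils and basophils, T, B and NK cells, dendritic cells, erythroid cells and immature neutrophils. Siglec5 was not among the genes listed, and Hbb-bs had no values. A few genes that the rule for named genes picks are not reported here.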

Additional observations from a re-analysis of the deposited data

How the results depend on the processing

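The main call used TMM counts and a fold limit of 0.58. In Ly6Glow against Ly6Ghi the count of 4 lower genes among the 8 became 8 with no fold limit, 1 with a limit of 1 and 7 on log2(FPKM + 0.1). Over all genes 4182 of 14108, 963 of 14108 and 3606 of 18317 were lower in these fits. Of the 13 other sterol enzymes 3 were lower with a limit of 1 and 3 were higher with none, where 3686 of 14108 genes were higher. In Ly6Ghi against NL, 1 of the 8 was lower with upper-quartile scaling, a filter of 10 counts, no fold limit or log2(FPKM + 0.1), and 2 were higher with a limit of 1 and in each of the 3 FPKM fits. Over all genes 5755 of 14108, 3547 of 11328, 6301 of 14108 and 7625 of 18317 were lower in the first 4 of these fits. With a limit of 1, 1900 of 14108 were higher. On log2(FPKM + 1) 1436 of 18317 were higher, 1426 of 11820 when filtered, and 1826 of 18317 on log2(FPKM + 0.1). Of the other sterol enzymes 2 were lower with upper-quartile scaling and with the filter of 10 counts, 3 with no fold limit, 3 on log2(FPKM + 1), filtered or not, with 4 higher, and 4 on log2(FPKM + 0.1). In Ly6Glow against NL, 2 of the 8 were higher with median-ratio size factors and with DESeq2, 4 were higher and 4 lower with no fold limit, 1 was lower with a limit of 1, 4 were lower in each FPKM fit, and 3 with upper-quartile scaling and with the filter of 10 counts. Over all genes 4440 of 14108 were higher with median-ratio size factors and 4441 of 16880 with DESeq2. With no fold limit 5591 of 14108 were higher and 6655 lower, and 4800 were lower with a limit of 1. On log2(FPKM + 1) 6473 of 18317 were lower, 5845 of 11820 when filtered, and 8909 of 18317 on log2(FPKM + 0.1). In the filtered fit and on log2(FPKM + 0.1) the 4 of 8 lay near that share. Of the other enzymes 1 was lower with a limit of 1, 2 were higher on log2(FPKM + 1), filtered or not, and 7 were lower on log2(FPKM + 0.1). With single libraries left out the counts ranged from 1 to 2 higher for the 8 in Ly6Glow against NL (2 without Ly6Glow library 1 or NL library 2, through Idi1) and from 1 to 2 lower for the other enzymes in Ly6Ghi against NL (2 without Ly6Ghi library 2 or NL library 2), and the other counts for the 8 and for the other sterol enzymes stayed within 1 of the main ones.

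Among the 8 genes, signs turned in the comparisons with NL. In Ly6Ghi, Insig1 was 0.002 with median-ratio size factors, 0.008 with DESeq2 and -0.051 to 0.007 with single libraries left out (0.007 without NL library 2), and Sqle was -0.112 with upper-quartile scaling, -0.093 with the filter of 10 counts, -0.328 on log2(FPKM + 1), filtered or not, and -0.374 on log2(FPKM + 0.1). Over all the scalings, filters and tests tried, Insig1 went down to -0.483. In Ly6Glow, Hmgcs1 was -0.050 with upper-quartile scaling and -0.043 with the filter; on log2(FPKM + 1), filtered or not, Hmgcs1 was -0.523, Fdft1 -0.350 and Idi1 -0.137, and on log2(FPKM + 0.1) they were -0.548, -0.412 and -0.184. The median over all genes was -0.28 (upper quartile) against -0.09 (TMM) for Ly6Ghi and -0.35 against -0.16 for Ly6Glow, and on log2(FPKM + 1) the share of called genes that were higher was 14.1%, 21.8% and 14.8% in the order of the report, against 36.8%, 41.8% and 41.3%, and 45.3% with median-ratio factors for the subsets and 32.4% with upper-quartile factors for Ly6Ghi against NL. Over all genes in Ly6Glow against Ly6Ghi, 1310 were higher and 2250 lower, against 317 higher on log2(FPKM + 1), 342 and 963 with a limit of 1 and 3686 and 4182 with none. The cause was not tested.

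Deviations of same-numbered libraries correlated at -0.07 to 0.08, so the replicate numbers gave no sign of pairing. Libraries of a group differed little, so this check cannot exclude that same-numbered libraries came from the same mice. With a replicate block 1294 genes were higher and 2228 lower in Ly6Glow against Ly6Ghi, and the counts for the 8 genes (4 lower; 4 higher; 1 higher and 2 lower) were as without it.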
